A study of Rattus norvegicus with 6 samples.

Results

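The genes described here encode 8 proteins of the myelin sheath, Mbp, Pmp22, Mag, Mal, Prx, Cnp, Gjb1 and Pmp2, and were chosen by symbol among the 29468 gene symbols of the deposited tables. Their level was compared between Schwann cell precursors (SCPs) and repair Schwann cells (RSCs) of wild type LEWIS rats, with 3 samples of each. The study's methods name transgenic LEWIS rats that express RFP as source of the grafted cells, in a section that also covers cells for RNA. The SCPs were dissociated from sciatic nerves and brachial plexus of embryos at embryonic day 14 and received no treatment. The RSCs were dissociated from the distal segments of sciatic nerves of rats that the labels give as 10 weeks old, taken 1 week after the nerve was cut. The RNA came from dissociated cells that were not sorted, although the study's methods describe a brief step on an uncoated flask to take out adherent fibroblasts and macrophages, and intact adult nerve was not among the sequenced groups. How many embryos or nerves went into a sample is not given in the sources used here, so p-values measure the spread between these samples. For each sample the tables give FPKM, in which the fragments of a transcript are divided by its length and by the mapped fragments of the library, a level per length that allows genes to be set side by side. The tables hold no read counts. Depth relative to the deepest sample, from the coverage per unit of FPKM, was 0.933, 1 and 0.878 in SCP samples 1 to 3 and 0.800, 0.841 and 0.790 in RSC samples 1 to 3.

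Myelin is the spirally wrapped membrane of the Schwann cell, and its compact part is held together by a small set of abundant membrane and membrane-bound proteins. In the embryonic nerve the SCPs migrate along axons and carry no myelin, and wrapping begins around birth. When an adult nerve is cut, the Schwann cells distal to the cut lose their axons, break down their myelin and turn the myelin genes down while they become repair cells. Cells taken 1 week after a cut thus come from a nerve that had been myelinated, whereas SCPs come from one that had not. The transcription factor Egr2, together with Sox10, switches on many myelin genes, and Jun and Sox2 act against the myelinating state.

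Of the 8 genes, 7 averaged 1 FPKM or more across the samples and were tested with limma on log2(FPKM + 1), a scale that understates the change of low genes. At an unadjusted p under 0.01, 6 of the 7 were higher in the RSCs and none was higher in the SCPs. Among all 13003 tested genes 18.1% were higher in the RSCs and 22.4% higher in the SCPs at the same threshold. The 6 genes were Mbp, Pmp2, Mal, Gjb1, Pmp22 and Cnp, and each of them also had a Benjamini-Hochberg adjusted p under 0.01 over all tested genes, as did 15% of all tested genes in that direction. A log2 fold change over 2, or 4-fold, was reached by 4 of the 7, against 7.81% of all tested genes. In the same 6 genes every RSC value lay above every SCP value, which was the case in 24.9% of all tested genes. The median log2 fold change of the 7 was 2.02, and that of all 13003 genes was -0.17. The 8 genes together made up 0.0426%, 0.0491% and 0.0559% of the named FPKM in the SCPs and 0.229%, 0.183% and 0.176% in the RSCs. The RNA is from whole cell preparations, so a difference in the number of cells that carry a transcript and a difference in RNA per cell cannot be told apart.

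**Figure D1:**
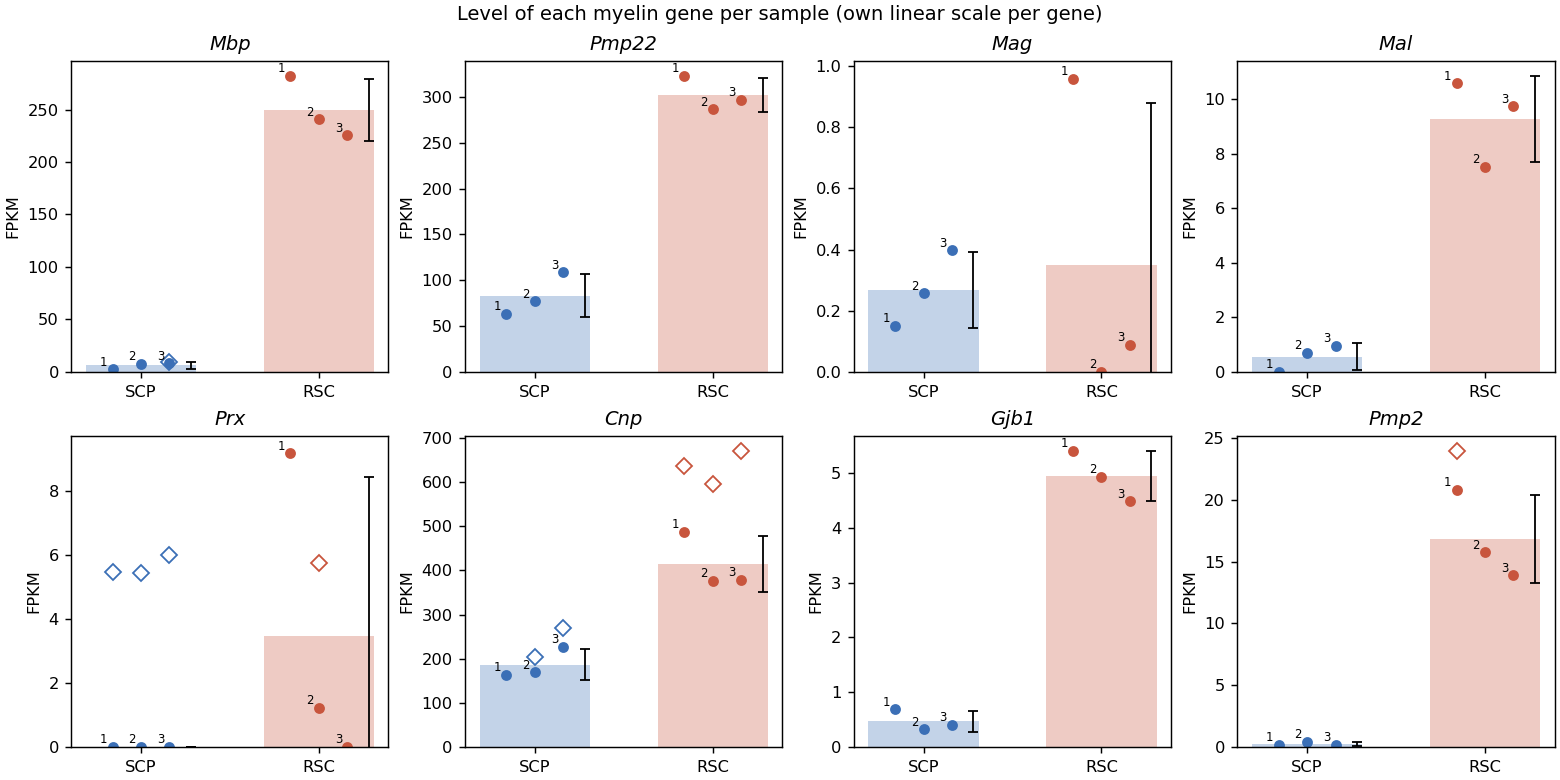
FPKM of each of the 8 genes in the 3 SCP samples (blue) and the 3 RSC samples (red), on a separate linear axis per gene that starts at 0. Circles are named transcripts with the replicate number beside them, bars and whiskers their mean and SD, and open diamonds the value once unnamed transcripts at the gene are added. The groups lie apart in Mbp, Pmp22, Mal, Cnp, Gjb1 and Pmp2 and overlap in Mag and Prx.

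Mbp encodes the myelin basic protein, which binds the inner faces of the membrane together in compact myelin. Its level was 2.55, 7.73 and 8.26 FPKM in the SCPs and 282, 241 and 225 FPKM in the RSCs. All 3 RSC samples were far above the SCP samples, and SCP replicate 1 was the lowest of the 6. The mean was 6.18 ± 3.16 in the SCPs and 249 ± 29.3 in the RSCs (SD, n = 3 each), and the log2 fold change was 5.24 (95% interval 4.30 to 6.18, adjusted p = 0.0002, limma). Mbp thus lay near the middle of the tested genes in the SCPs and near their top in the RSCs, with 7524 of the 13003 tested genes above its SCP mean and 314 above its RSC mean.

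The Mbp gene lies on chromosome 18 from 79326636 to 79437310 of rn6, and the tables list 10 named transcripts for it, 5 of which share a start at 79406381. The other 5 start at positions upstream of it, from 79326636 to 79388272, and belong to the longer transcription unit of the locus. All of the named Mbp FPKM in the RSCs stood in transcripts of the shared start. In RSC samples 1 to 3, NM_017026.2 held 147, 137 and 99.7 FPKM, NM_001025292.1 held 75.6, 42.8 and 57.9, and NM_001025294.1 held 59.1, 61.5 and 67.8. In SCP replicates 2 and 3 the whole named level stood in NM_001025294.1, whereas in SCP replicate 1 the shared start was listed at 0 and 2 transcripts from upstream starts held 1.39 and 1.16 FPKM. The tables mark these 3 transcripts of the shared start as low data in every sample, and how the reads were divided among them is an estimate of Cufflinks.

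Pmp22 encodes a membrane protein of compact myelin whose dosage is critical, since its duplication or loss causes inherited neuropathies. Its level was 63.1, 77.0 and 109 FPKM in the SCPs and 323, 286 and 297 FPKM in the RSCs. The precursors already carried the transcript at a level above 93.2% of the tested genes, and the lowest RSC sample was well above the highest SCP sample. The means were 82.9 ± 23.4 and 302 ± 18.8 (SD, n = 3 each), with a log2 fold change of 1.89 (95% interval 1.40 to 2.38, adjusted p = 0.00073, limma). The gene (chromosome 10 from 49538588 to 49568583) has 3 named transcripts with different starts. XM_006246584.2 was the main one in all 6 samples and had a log2 fold change of 1.64 (adjusted p = 0.0027, limma over 17328 transcripts). NM_017037.1, which starts farthest upstream, was listed at 0 in all SCP samples and at 81.3, 52.5 and 47.1 FPKM in the RSCs. It made up 25.2%, 18.4% and 15.9% of the Pmp22 level in the RSC samples, and XM_006246585.2 was above 0 in SCP replicate 2 alone, at 11.0 FPKM. How the reads were divided among the 3 transcripts is an estimate of Cufflinks.

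Cnp encodes the cyclic nucleotide phosphodiesterase of the cytoplasm-filled, non-compact parts of myelin. It was the highest of the 8 genes in both groups, at 163, 169 and 226 FPKM in the SCPs and 487, 376 and 379 FPKM in the RSCs. The groups did not overlap, but its log2 fold change of 1.15 (95% interval 0.74 to 1.57, adjusted p = 0.0025, limma) was the smallest among the 6 genes past the threshold. All of the named level stood in NM_012809.2, which starts at 88490798 on chromosome 10 of rn6, and the other 3 named transcripts were listed at 0. Cufflinks also assembled an unnamed transcript at Cnp in 5 of the 6 samples, with a start between 88491692 and 88491926. It held 0, 35.0 and 43.9 FPKM in the SCPs and 149, 220 and 292 FPKM in the RSCs. That was up to 17.2% of the gene's total in the SCPs and 23.4% to 43.6% in the RSCs. With it added, Cnp stood at 163, 204 and 270 FPKM in the SCPs and 636, 596 and 671 FPKM in the RSCs, and its log2 fold change was 1.60 (adjusted p = 0.00031, limma).

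**Figure D2:**
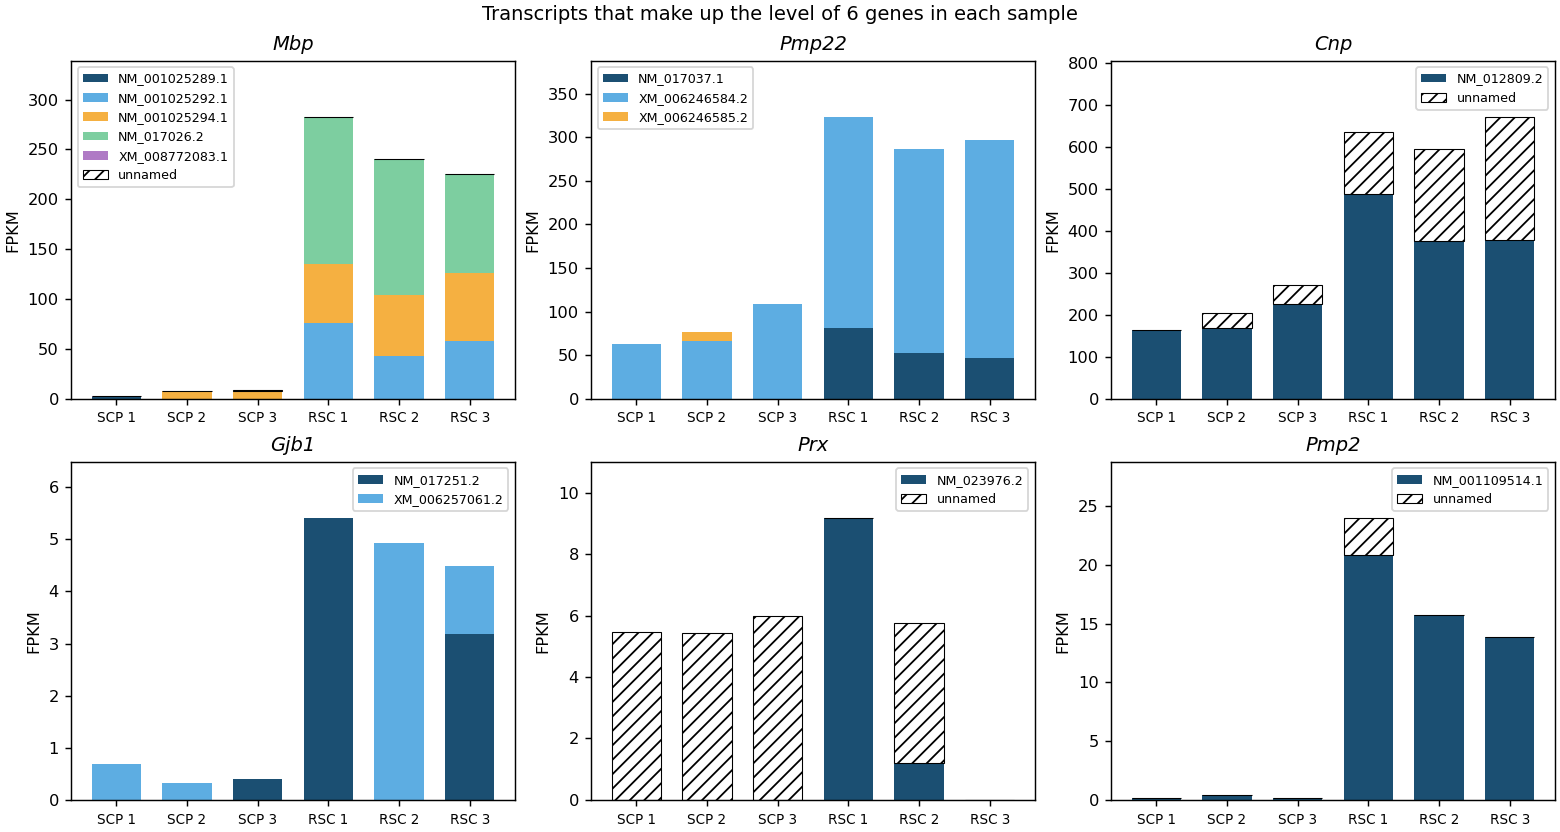
FPKM of the named transcripts above 0 (colours) and of unnamed transcripts at the same gene (hatched), stacked for each of the 6 samples, for Mbp, Pmp22, Cnp, Gjb1, Prx and Pmp2. NM_017037.1 of Pmp22 is listed above 0 in the RSCs alone, Prx is unnamed in all SCP samples, and RSC replicate 3 has no Prx transcript of either kind above 0.

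Pmp2 encodes a fatty acid-binding protein of peripheral myelin. Its level was 0.150, 0.419 and 0.158 FPKM in the SCPs and 20.8, 15.8 and 13.9 FPKM in the RSCs. The transcript was thus near the bottom of the table in the SCPs, with 3.48% of tested genes below its mean, and above 69% of them in the RSCs. The log2 fold change was 3.83 (95% interval 3.28 to 4.39, adjusted p = 8.8e-05, limma). On FPKM without the added 1, the RSC mean of 16.8 ± 3.58 was 69.4 times the SCP mean of 0.242 ± 0.153 (SD, n = 3 each), the largest ratio among the 7 genes with an SCP mean above 0. With 1 sample left out, this ratio ran from 58.3 without SCP replicate 1 to 109 without SCP replicate 2, the highest of the 3 SCP values.

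Mal encodes a small membrane proteolipid that takes part in the transport of membrane to the sheath. It was listed at 0, 0.698 and 0.961 FPKM in the SCPs and at 10.6, 7.53 and 9.73 FPKM in the RSCs. The SCP values were all under 1 FPKM and the groups were well separated. The log2 fold change was 2.77 (95% interval 1.99 to 3.55, adjusted p = 0.00099, limma).

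Gjb1 encodes a connexin that forms gap junctions between the layers of a Schwann cell's own myelin. Its level was 0.685, 0.320 and 0.403 FPKM in the SCPs and 5.40, 4.93 and 4.48 FPKM in the RSCs. The RSC values lay close together and all above the SCP values, with a log2 fold change of 2.02 (95% interval 1.50 to 2.54, adjusted p = 0.0007, limma). The level stood in one of 2 named transcripts whose starts lie close to each other, 71272030 and 71271994 on the X chromosome of rn6, and which of them held it changed between samples of the same group. NM_017251.2 held all of it in RSC replicate 1, XM_006257061.2 all of it in RSC replicate 2, and both shared it in RSC replicate 3. Neither transcript passed p under 0.01 on its own, with adjusted p of 0.21 and 0.42, so the difference is a property of their sum. The 8 genes have 32 named transcripts, and 17 of these had a level above 0 in some sample. Of the 12 high enough to be tested, 8 were higher in the RSCs at p under 0.01, against 13.6% of all 17328 transcripts tested, and none was higher in the SCPs, against 15.9%. One of the 8, NM_001025294.1 of Mbp, was not called when any one of the RSC samples was left out.

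Mag encodes an adhesion protein on the innermost myelin layer, facing the axon. It was at 0.151, 0.257 and 0.398 FPKM in the SCPs and at 0.960, 0 and 0.0886 FPKM in the RSCs. The groups overlapped, no sample reached 1 FPKM, and the gene was too low to be tested. The reads fell on 3 of its 7 named transcripts, a different one in RSC replicate 1 than in RSC replicate 3.

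Prx encodes periaxin, a scaffold protein that ties the outer Schwann cell membrane to the basal lamina. Its named transcripts were listed at 0 in all SCP samples and at 9.16, 1.21 and 0 FPKM in the RSCs, with a log2 fold change of 1.50 (95% interval -0.55 to 3.55, adjusted p = 0.19, limma). The named level rested on RSC replicate 1, and the groups overlapped. Cufflinks had assembled unnamed transcripts over the gene, which covers chromosome 1 from 84302912 to 84324560 of rn6, in all SCP samples and in RSC replicate 2. With these added, Prx stood at 5.47, 5.43 and 5.98 FPKM in the SCPs and at 9.16, 5.75 and 0 FPKM in the RSCs. The sign of the log2 fold change then turned to -0.69 (95% interval -2.66 to 1.27, adjusted p = 0.48, limma). In RSC replicate 3 no transcript of either kind was listed above 0 for Prx, and in that sample alone its Cufflinks locus also took in the neighbouring gene Sertad1, which stood at 62.4 FPKM there against 48.2 and 38.7 in the other RSC samples. Without that sample, and with unnamed transcripts added, the log2 fold change was 0.32 (adjusted p = 0.24, limma). These values therefore give no direction for Prx.

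**Figure D3:**
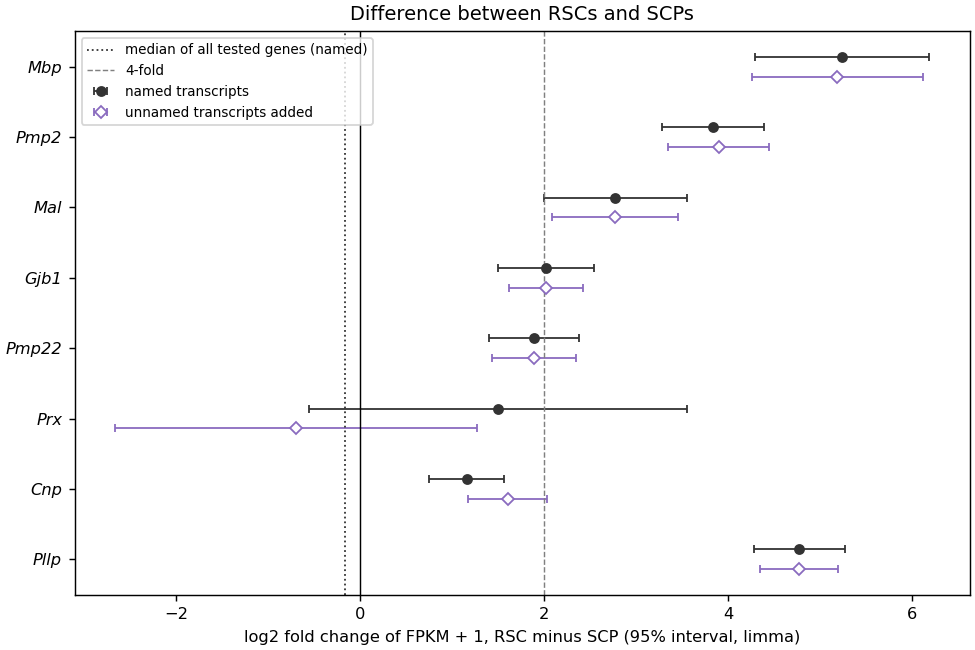
Log2 fold change of FPKM + 1, RSC minus SCP, with its 95% interval from limma, for the 7 tested genes of the set and for Pllp, another myelin gene. Filled circles use named transcripts and open diamonds add unnamed ones, the dotted line is the median of all tested genes (-0.17) and the dashed line marks 4-fold. Prx is the one gene whose estimate changes side.

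Ordered by their RSC means over named transcripts, the genes were Cnp (414), Pmp22 (302), Mbp (249), Pmp2 (16.8), Mal (9.28), Gjb1 (4.94), Prx (3.46) and Mag (0.349 FPKM). In the RSCs the values of Cnp, Pmp22 and Mbp did not overlap with one another, although RSC replicate 1 had 323 FPKM of Pmp22 and 282 of Mbp, closer than the means. Neighbours further down the order did not overlap either until Prx, whose values overlapped those of Mal, Gjb1 and Mag. In the SCPs the order was Cnp (186), Pmp22 (82.9), Mbp (6.18), Mal (0.553), Gjb1 (0.469), Mag (0.269), Pmp2 (0.242) and Prx (0). From Mal to Pmp2 the SCP values overlapped and the order carries no weight. With unnamed transcripts added, Prx had a mean of 4.97 in the RSCs, next to Gjb1 at 4.94, and of 5.63 in the SCPs, the fourth highest there. Cnp and Pmp22 were the 2 genes that the precursors carried at a high level, and Mag and Prx were the 2 whose groups overlapped. RSC replicate 1 had the highest RSC value in 8 of the 8 genes, a position it held in 34.4% of all tested genes, and with unnamed transcripts added in 7 of the 8, against 35.2% of the genes then tested. Leaving it out kept all 6 calls.

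Sox10, a transcription factor of the whole Schwann lineage that the study used to mark both cell types, offers a second scale. It stood at 179, 175 and 181 FPKM in the SCPs and 149, 143 and 143 FPKM in the RSCs, a log2 fold change of -0.30 (adjusted p = 0.0077, limma) that was -0.09 (adjusted p = 0.31) after median-of-ratios scaling. Relative to Sox10 in the same sample, Mbp was at 1.42%, 4.42% and 4.56% in the SCPs and at 189.7%, 168% and 157% in the RSCs. Pmp22 was at 35.2%, 44.0% and 60.0% in the SCPs and at 217%, 199.9% and 207% in the RSCs. For Pmp2 the same ratio went from 0.0835%, 0.240% and 0.0872% to 14.0%, 11.0% and 9.71%. The separation of the groups was thus as clear on this scale, and Mag and Prx still overlapped.

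The 8 genes lie on different chromosomes, apart from Mag and Prx on chromosome 1 and Pmp22 and Cnp on chromosome 10. Starts for 7 of the 8 are in the RefSeq promoter table of the GRCr8 build, and the 250 bases upstream of 3 genes that were higher in the RSCs are given here 5′ to 3′ on the gene's strand. They are shown for Cnp, Gjb1 and Mal as genes past the threshold, of which Cnp had a high level in the SCPs and Gjb1 and Mal were under 1 FPKM in every SCP sample. Capitals mark the short words ACAAT or ACAAAG, which SOX factors such as Sox10 bind, and GCGTGGG, which EGR factors such as Egr2 bind, searched on both strands. The Cnp stretch is chr10:86011254-86011503 on the plus strand, that of Gjb1 chrX:70541595-70541844 on the plus strand, and that of Mal chr3:135341424-135341673 on the minus strand.
Cnp: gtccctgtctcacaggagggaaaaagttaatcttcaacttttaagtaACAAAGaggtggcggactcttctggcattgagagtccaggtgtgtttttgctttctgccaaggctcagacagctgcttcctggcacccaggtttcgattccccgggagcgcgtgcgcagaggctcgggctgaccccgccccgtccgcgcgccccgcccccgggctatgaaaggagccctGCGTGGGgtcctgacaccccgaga
Gjb1: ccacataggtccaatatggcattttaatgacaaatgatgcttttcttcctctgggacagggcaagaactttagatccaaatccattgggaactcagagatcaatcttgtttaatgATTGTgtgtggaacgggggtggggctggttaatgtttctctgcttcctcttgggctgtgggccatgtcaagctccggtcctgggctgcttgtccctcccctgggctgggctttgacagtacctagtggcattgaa
Mal: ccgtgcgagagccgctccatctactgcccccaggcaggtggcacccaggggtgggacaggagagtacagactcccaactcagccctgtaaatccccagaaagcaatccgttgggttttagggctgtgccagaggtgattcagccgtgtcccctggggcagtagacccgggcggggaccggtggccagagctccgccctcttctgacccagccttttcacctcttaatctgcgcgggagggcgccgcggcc
In Cnp, ACAAAG lay 203 to 198 bases and GCGTGGG 24 to 18 bases before the start, both on the gene's strand. Gjb1 held ACAAT on the opposite strand, 135 to 131 bases before the start, where it reads ATTGT, and Mal held none of the words. Of 33469 rat promoters in the table, 30.0% had ACAAT, 16.3% ACAAAG and 3.68% GCGTGGG in the same stretch. Among the other 4 genes with a start in the table, Mag held ACAAAG, 1 of 2 Mbp starts held ACAAT at 2 places and ACAAAG at 1, and Pmp22 and Prx held none of the words. A match describes the letters and no binding. On rn6 the named transcripts of Cnp have 4 starts and those of Gjb1 have 3. Which of these starts the printed stretches belong to was not determined.

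Other genes of the sheath were looked at as a list of 13, of which 7 could be tested. At p under 0.01, 5 of the 7 were higher in the RSCs and none was higher in the SCPs. Among all tested genes these shares were 18.1% and 22.4%. The median log2 fold change of the list was 1.60. Pllp, which encodes plasmolipin, a relative of Mal in myelin, stood at 0.269, 0.754 and 0.284 FPKM in the SCPs and 42.9, 37.1 and 33.8 FPKM in the RSCs. That was a log2 fold change of 4.77 (adjusted p = 3.6e-05, limma). Cldn19, a tight junction protein of the sheath, followed with 2.60. Cmtm5 had a log2 fold change of 1.60 and Dusp15 of 0.97, although Dusp15 was not called without SCP replicate 2, RSC replicate 1 or RSC replicate 3 (0.91 to 0.92). Gjc3, another connexin, had 1.20 (adjusted p = 0.083) and Tspan2 had -0.36 (adjusted p = 0.25), neither past the threshold. Mobp and Opalin, which belong to the myelin of oligodendrocytes, were listed at 0 in every sample.

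Adding the unnamed transcripts to all genes brought the tested genes to 14019, of which 23.2% were higher in the RSCs and 34.2% higher in the SCPs at p under 0.01. The count for the 8 genes stayed at 6 of 7. In the list of other sheath genes it became 7 higher in the RSCs and 1 higher in the SCPs, of 11. That 1 was Mog, at 9.71, 12.6 and 10.9 FPKM in the SCPs and 6.24, 6.09 and 4.95 FPKM in the RSCs, most of it in every sample in unnamed transcripts that cover only one end of the gene.

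The closest relatives of the 8 proteins were described as a list of 10, with 7 tested. Of these, 4 were higher in the RSCs at p under 0.01, none was higher in the SCPs, and the median was 3.69. Among all tested genes these shares were 18.1% and 22.4%. With unnamed transcripts added it was 5 and 1 of the 7, against 23.2% and 34.2% of all genes then tested. Emp1, Emp2 and Emp3, the epithelial membrane proteins of the Pmp22 family, had log2 fold changes of 4.51, 3.69 and 4.04, larger than the 1.89 of Pmp22 itself. Emp1 stood at 15.9, 24.1 and 30.1 FPKM in the SCPs and 526, 530 and 560 FPKM in the RSCs, above Pmp22 in the RSCs and below it in the SCPs. Siglec1, a relative of Mag that is known from macrophages, was at 0, 0.0249 and 0.158 FPKM in the SCPs and 14.9, 18.0 and 22.5 FPKM in the RSCs. Fabp5, a relative of Pmp2, stood at 275, 235 and 255 against 204, 170 and 208 FPKM, a log2 fold change of -0.40 that missed the threshold (adjusted p = 0.025, limma). It passed at the same fold once unnamed transcripts were added to all genes (adjusted p = 0.014, limma). Gjb2, a relative of Gjb1, had 0.72 (adjusted p = 0.24). Reads that paralogues have in common may be split between them, in a way the sources used here do not describe.

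Of 12 factors that switch on myelin genes, all tested, 3 were higher in the RSCs, 3 were higher in the SCPs and 6 did not pass, with a median of 0.39. These shares are near the 18.1% and 22.4% of all tested genes. Egr2 stood at 3.10, 4.25 and 3.80 FPKM in the SCPs and 38.3, 34.7 and 39.2 FPKM in the RSCs, a log2 fold change of 3.03 (adjusted p = 4.7e-05, limma). The groups were wide apart, and Egr2 was the most changed of the list. Pou3f1, which acts before Egr2 in promyelinating cells, had 1.94 and Srebf1, a regulator of lipid synthesis, 1.57, or 0.22 (adjusted p = 0.51) when only its highest transcript was used. Higher in the SCPs were Srebf2, the regulator of cholesterol synthesis, at -1.40, Yy1 at -1.19 and Sox10 at -0.30. Yy1 was not called without SCP replicate 1, SCP replicate 2, RSC replicate 1 or RSC replicate 2. With unnamed transcripts added 6 were higher in the RSCs and 5 higher in the SCPs, against 23.2% and 34.2% of all genes then tested.

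Factors that hold myelination back were higher in the RSCs in 3 of 7 tested genes, none was higher in the SCPs, and the median was 0.88, beside 18.1% and 22.4% of all tested genes. Once unnamed transcripts were added, 4 of 8 were higher in the RSCs and 2, Pax3 and Notch1, were higher in the SCPs, with a median of 0.66, beside 23.2% and 34.2%. Sox2, a factor of immature Schwann cells, stood at 11.2, 9.55 and 9.80 FPKM in the SCPs and 97.5, 81.2 and 88.9 FPKM in the RSCs, a log2 fold change of 3.01 (adjusted p = 2.7e-05, limma). The RSC samples thus carried more Sox2 and more Egr2 than the SCPs at the same time. Egr1, with 1.40, and Id2, with 0.88, were also higher, although Id2 no longer passed with unnamed transcripts added (0.70, adjusted p = 0.046, limma). Hey1 had -0.71 (adjusted p = 0.083) and Notch1 -0.46 (adjusted p = 0.094), neither past the threshold. The same addition turned Hey1 to 0.12 (adjusted p = 0.58) and gave Notch1 -0.91 (adjusted p = 0.0086, limma), a call on the SCP side. Jun, the leading factor of the repair state, was at 444, 423 and 483 FPKM in the SCPs and 118, 635 and 672 FPKM in the RSCs (adjusted p = 0.76, limma). In RSC replicate 1 another 665 FPKM stood in an unnamed transcript at Jun, and with it the log2 fold change was 0.63 (adjusted p = 0.0015, limma).

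Genes of myelin lipid synthesis went both ways, with 4 of 12 tested higher in the RSCs, 5 higher in the SCPs and a median of -0.44, against 18.1% and 22.4% of all tested genes. The addition of unnamed transcripts made it 5 and 7 of 16, against 23.2% and 34.2%, with a median of -0.53. Ugt8, which makes galactosylceramide, a lipid typical of myelin, had a log2 fold change of 3.11, and Scd, a fatty acid desaturase, had 1.86 at 399, 398 and 411 FPKM in the SCPs and 1463, 1400.4 and 1531 FPKM in the RSCs. Fasn, the fatty acid synthase, had -1.77, and the cholesterol synthesis gene Hmgcs1 had -1.47. Sqle, of the same pathway, had -3.05 but missed the threshold (adjusted p = 0.029, limma) and was listed at 0 in RSC replicate 2. That sample had 10.5 FPKM of Sqle in an unnamed transcript, and with these added the log2 fold change was -0.89 (adjusted p = 0.041, limma). The ceramide gene Ugt8 was thus on the side of the myelin proteins and the sterol genes named here were not.

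Of the adhesion and polarity genes of the contact between axon and glia, 2 of 10 tested were higher in the RSCs and 3 higher in the SCPs, with a median of 0.13, again near the 18.1% and 22.4% of all tested genes. The addition of unnamed transcripts made it 5 of 11 higher in the RSCs, beside 23.2% of all genes then tested. Of the 5, 4 were over 4-fold, but the share of all genes over 4-fold in that fit is not given, so this count has no scale. The same 3 stayed higher in the SCPs, beside 34.2%, and the median was 0.71. The genes gained on the RSC side were Nfasc at 2.15, Cadm3 at 1.78 and Nrcam at 4.10. Cadm4, the adhesion molecule of the Schwann cell side of the internode, stood at 109, 119 and 164 FPKM in the SCPs and 486, 618 and 541 FPKM in the RSCs, a log2 fold change of 2.08. Cadm2 had 1.99, whereas Cadm1 had -1.60, or -0.93 with unnamed transcripts added, and the polarity gene Mpdz -1.27. Among receptors and matrix molecules that drive myelination, 3 of 11 tested were higher in the RSCs and 1 was higher in the SCPs, with a median of 1.10, beside the same 18.1% and 22.4%, and with unnamed transcripts added 7 and 1 of 12, with a median of 0.70, beside 23.2% and 34.2%. Itga6, a laminin receptor subunit, had 1.34 and Itgb1 had 0.83, both higher in the RSCs, while Igf1r had -2.07, or -1.84 (adjusted p = 0.047, limma) and no call when only its highest transcript was used. Erbb2, the co-receptor for axonal neuregulin, had -0.59 (adjusted p = 0.029) and missed the threshold. Erbb3, its partner, was listed at 0 in SCP replicate 1 and RSC replicate 2, and with unnamed transcripts it stood at 79.8, 87.7 and 102 FPKM in the SCPs and 269, 208 and 218 FPKM in the RSCs (log2 fold change 1.35, adjusted p = 0.00019, limma). Lama2 and Itgb4 had log2 fold changes of 3.68 and 3.55 and missed the threshold, and both were listed at 0 in RSC replicate 1. With unnamed transcripts added they had 3.82 (adjusted p = 6.4e-06) and 6.87 (adjusted p = 1.2e-06).

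**Figure D4:**
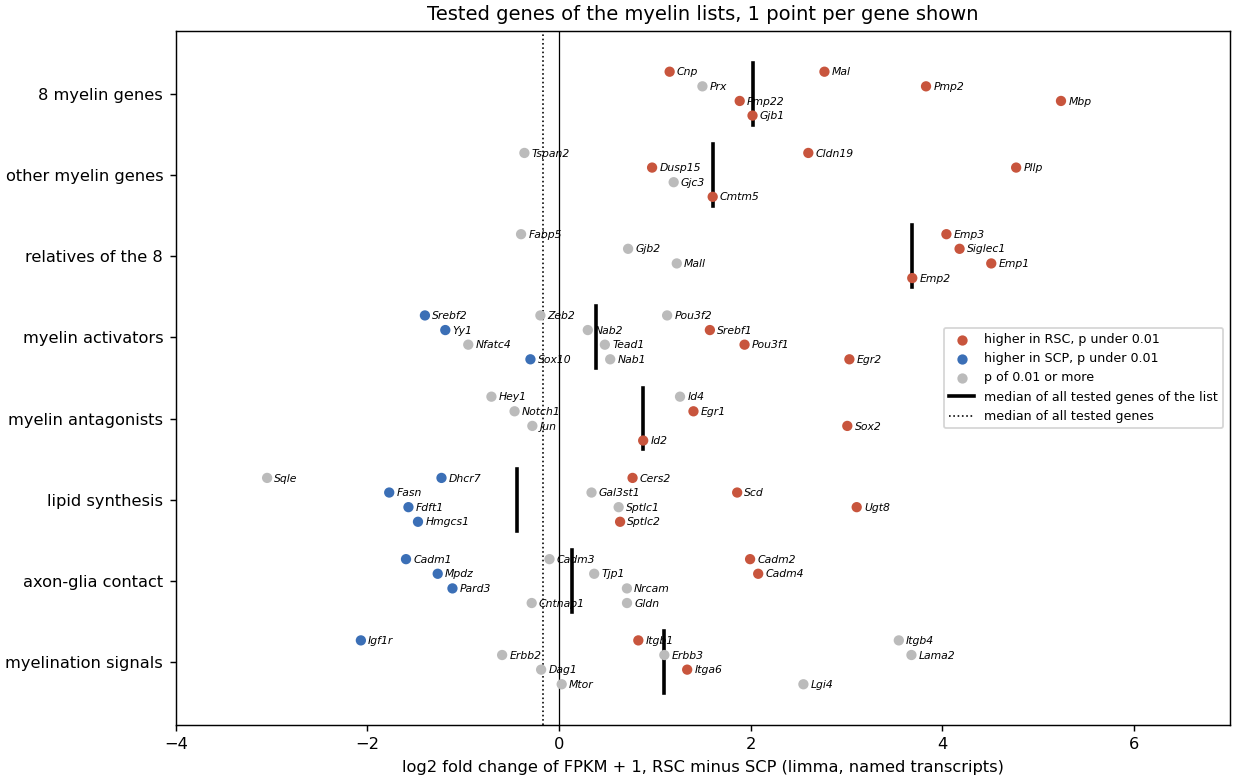
Log2 fold change, RSC minus SCP, of tested genes among the 8 myelin genes and 7 lists of related genes, with named transcripts, apart from a few genes not reported here. Red points are higher in the RSCs and blue points higher in the SCPs at p under 0.01, grey points did not pass, and the black bars are medians over all tested genes of a list, which run from 3.69 for relatives of the 8 proteins to -0.44 for lipid synthesis.

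Over the 6 samples, the pattern most like that of Mbp belonged to Aif1 and Vwa1, with root mean square differences of 0.20 and 0.22 in centred log2(FPKM + 1). Aif1 is also one of the leukocyte markers below. Pmp22 was closest to Phlda1 and Qsox1 (0.09 and 0.11), Cnp to Fam114a1l1 and Yif1a (0.07 and 0.09), and Pmp2 to RT1-M6-1 and Cav2 (0.09 and 0.10). Mal was closest to LOC684327 and Arid5a (0.13 and 0.16), and Gjb1 to Fgr and Klra1 (0.06 and 0.07). Prx was closest to Ubd and Cxcl11 (0.11 and 0.15), with a named level that rested on 1 or 2 samples in each, and Mag to Ubxn8 and LOC100910121 (both 0.10). With 3 samples in each of 2 groups, this measure mostly reads the size of the difference between the groups.

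The labelled cell types were checked against markers. Of 8 Schwann lineage markers, 7 could be tested, 3 were higher in the RSCs and 1, Sox10, was higher in the SCPs. Among all tested genes these shares were 18.1% and 22.4%. Erbb3 and Cdh19 were called as well once unnamed transcripts were added, which gave 5 and 1 of 7, beside 23.2% and 34.2%. S100b stood at 3.21, 11.7 and 19.3 FPKM in the SCPs and 924, 782 and 843 FPKM in the RSCs, a log2 fold change of 6.37 (5.72 without SCP replicate 1), Ngfr had 2.19 and Gap43 had 1.08. Foxd3 was listed at 0 in 4 of the 6 samples (log2 fold change 0.47, adjusted p = 0.84), but with unnamed transcripts added it stood at 59.0, 53.9 and 57.5 FPKM in the SCPs and 55.9, 52.1 and 76.6 FPKM in the RSCs (0.09, adjusted p = 0.60, limma). Oligodendrocytes express several of the 8 genes, and of 6 markers of these cells Mobp and Opalin were listed at 0 throughout and Olig2 and Hapln2 stayed under 1 FPKM in every sample. The 6 summed to 25.9, 34.6 and 37.2 FPKM in the SCPs and 10.2, 14.6 and 21.6 in the RSCs, nearly all of it Myrf, which had a log2 fold change of -1.06 (adjusted p = 0.028, limma) and did not pass. The groups overlapped once unnamed transcripts were added, at 35.6, 45.1 and 48.1 FPKM in the SCPs and 36.8, 31.8 and 31.4 in the RSCs, and Myrf had -0.20. Mog, the sixth marker, could then be tested and was higher in the SCPs (-0.84, adjusted p = 0.0023, limma). That was 1 of 2 tested, beside 34.2% of all genes then tested.

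Markers of other cells moved with the comparison, although the study's methods describe the removal of adherent cells. Of 12 leukocyte markers, 8 could be tested. Against 7.81% of all tested genes, all 8 were over 4-fold higher in the RSCs. Their summed level was 10.1, 29.4 and 36.3 FPKM in the SCPs and 2383, 2923 and 3019 FPKM in the RSCs, with Lyz2 the most abundant (log2 fold change 8.44), Cd68 at 7.02 (5.87 with unnamed transcripts added and 7.93 without SCP replicate 3), Itgam at 4.19 and Ptprc at 2.85. Of 6 fibroblast markers, 5 were higher in the RSCs, against 18.1% of all tested genes. The 6 summed to 641, 912 and 1020 FPKM in the SCPs and 5360, 8011 and 6756 FPKM in the RSCs. Dcn was the most abundant, at 6.96, followed by Col1a1 at 3.52 and Col3a1 at 1.96, and Pdgfra had 0.26 (adjusted p = 0.13). Endothelial markers summed to 23.2, 36.6 and 26.0 FPKM in the SCPs and 64.6, 71.6 and 66.5 in the RSCs. Cldn5 (1.88) was the 1 of 5 past the threshold, near the 18.1% of all tested genes. Cdh5 was at 1.80 (adjusted p = 0.068), Kdr at -0.19 and Pecam1 at -0.19. Once unnamed transcripts were added, the sums were 36.9, 71.3 and 48.8 FPKM against 90.4, 89.8 and 80.0, Cdh5 turned to -0.083 (adjusted p = 0.75) and Pecam1 to 0.19 (adjusted p = 0.61), and Cldn5 was still the 1 called.

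Other markers were on the side of the SCPs. The 6 erythroid markers summed to 35167, 30586 and 131440 FPKM in the SCPs and 1798, 1419 and 1834 in the RSCs. All 5 tested were higher in the SCPs, against 22.4% of all tested genes. Hbe1, the most abundant, and Hbz were listed at 0 in all RSC samples, and Hba1 had a log2 fold change of -3.61, or -2.88 without SCP replicate 3. Muscle markers summed to 44.3, 81.1 and 183 FPKM in the SCPs and 28.7, 23.2 and 25.0 in the RSCs. Actc1 (-5.19, or -4.59 without SCP replicate 3), Myod1 (-3.60) and Myh3 (-3.22) were higher in the SCPs and Des (1.37) in the RSCs. Those were 3 and 1 of 4 tested, against 22.4% and 18.1% of all tested genes. Myh3 was not called without SCP replicate 2 or any one RSC sample (-3.08 to -3.29), nor Des without SCP replicate 2 or RSC replicate 1 (1.35 and 1.28). Neuron markers summed to 52.8, 29.1 and 39.4 FPKM in the SCPs and 24.3, 19.0 and 18.5 in the RSCs, with Stmn2 at -2.16 and Elavl4 past the threshold, and Isl1 (-2.21), Prph (-1.21) and Tubb3 (-0.32) not. So 2 of 5 tested were higher in the SCPs, against 22.4% of all tested genes. Isl1 was listed at 0 in all RSC samples. When unnamed transcripts were added, Isl1 (-3.61, adjusted p = 1.1e-05, limma) and Prph (adjusted p = 0.011, limma) passed as well. That made 4 of 5 higher in the SCPs, against 34.2% of all genes then tested. Epithelial markers stayed low, with Epcam at 1.63 past the threshold and Krt8 at -0.49 not, or 1 of 2 tested, against 18.1% of all tested genes. With unnamed transcripts added, Krt18 could be tested as well and was higher in the SCPs (-1.62, adjusted p = 0.011, limma). That gave 1 of 3 on each side, against 23.2% higher in the RSCs and 34.2% higher in the SCPs among all genes then tested. FPKM is a share of the library, so the erythroid transcripts take part of the SCP scale. After median-of-ratios scaling, which brought the median of all tested genes from -0.17 to 0.0053, the same 6 myelin genes passed. The part that these cells had in the myelin gene differences was not tested.

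**Figure D5:**
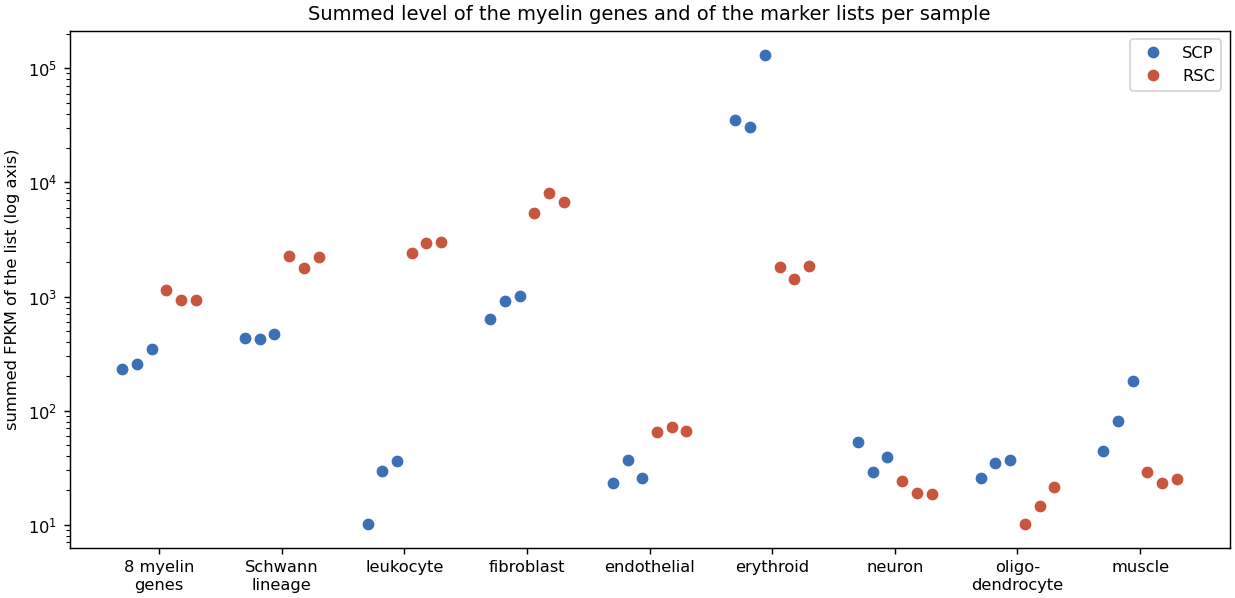
Summed FPKM of named transcripts, on a log axis, of the 8 myelin genes and of 8 lists of marker genes in each sample, with replicates 1 to 3 from left to right within a group. The sums of the myelin genes (229.5 to 345 FPKM in the SCPs, 929 to 1139 in the RSCs), Schwann lineage, leukocyte, fibroblast and endothelial lists are higher in all RSC samples, and erythroid, neuron, oligodendrocyte and muscle sums are higher in all SCP samples.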

How the data were processed

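The series holds 3 samples of SCPs and 3 of RSCs, sequenced on both ends of the fragments from stranded mRNA libraries. Per the labels, the authors used TopHat2 2.1.0, Cufflinks 2.2.1 and FastQC 0.11.2 with the rn6 rat genome. The deposited table of a sample gives, for every transcript, the FPKM and the read coverage, a signal that was used here for relative depth alone. The absolute depth is unknown, so no counting error or detection limit can be given, and a value of 0 can be a failed estimate. Named transcripts are the same throughout, and Cufflinks built 8815 to 12417 further ones without a name in each sample. Per sample, 77 transcripts whose names had become dates were left out.

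FPKM of named transcripts were summed by symbol. Genes averaging 1 FPKM or more were compared with limma 3.58.1 (R 4.3.3) on log2(FPKM + 1), two-sided, with a trend in the variance and without a block for the replicate number. Calls are at an unadjusted p under 0.01, the p threshold of the study, which also asked for a 4-fold change before it called a gene differentially expressed, and adjusted p are Benjamini-Hochberg values over all genes or transcripts tested. An unnamed transcript was added, where stated, to the gene it overlaps most under the same gene identifier. The code was tested on simulated data. Tables were handled with pandas 2.3.3 and drawn with matplotlib 3.10.9.

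The 8 genes and the lists were chosen with earlier results of these data known, and no list was tested. Named are the 8 genes with their transcripts, at least the 2 largest and the 2 smallest log2 fold changes of each list, further list genes, and for each of the 8 genes the 2 most similar others. Sertad1 was named after its values were seen, and some genes due to be named are left out of the text but remain in the counts, medians and sums of their lists. The settings changed one at a time were the pseudocount (0.1), the filter (none, or a mean of 5 FPKM), the scaling (quantile or median-of-ratios), the variance trend (left out), a block for the replicate number, the transcripts (the highest, or unnamed ones added), zeros (left out where a sample of the same group reached 5 FPKM), the ratio of group means, and each sample left out. After seeing the data, unnamed transcripts were also combined with scaling, the block and each sample left out, and the ratio of Pmp2 means was taken without each sample. The labels name no sequencing batch. Gene positions are those of the deposited files on rn6, counted from 1, and promoter positions are those of RefSeq on GRCr8.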

Additional observations from a re-analysis of the deposited data

How the results depend on the processing

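The 6 calls among the 8 genes (6 of 7 tested) were made again under every alternative run except 2. The ratio of group means keeps the p-values of the main fit, so it is not counted among these runs. A mean of at least 5 FPKM left 4 of the 6 genes to test, and all 4 were called. The highest transcript gave 5 calls, with Gjb1 at a log2 fold change of 1.42 (adjusted p = 0.17, limma) as the one lost. The number over 4-fold was 4, and it was 5 with median-of-ratios scaling, 3 with quantile normalization or the highest transcript and 2 with a mean of at least 5 FPKM. The number of all tested genes past the threshold was 5268, and 8040 with unnamed transcripts added. Leaving out 1 sample gave 6 calls each time, with 3 to 4 over 4-fold. For Mbp those log2 fold changes ran from 4.79 to 5.49, for Pmp2 from 3.68 to 3.95, for Mal from 2.48 to 2.97, for Gjb1 from 1.95 to 2.12, for Pmp22 from 1.71 to 2.1 and for Cnp from 1.03 to 1.30.

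With unnamed transcripts added, Prx turned to -0.69, also with the replicate block, and to -0.50 with median-of-ratios scaling. With unnamed transcripts added and 1 sample left out, Prx was at -0.71, -0.72 and -0.66 without SCP replicates 1, 2 and 3 and at -1.35 and -1.05 without RSC replicates 1 and 2, and the highest of its values without 1 sample, from named transcripts, was 2.25. Jun turned to 0.63 with unnamed transcripts added and to 0.080 as the ratio of group means, and ran from -0.71 to 0.54 when 1 sample was left out. With unnamed transcripts added Hey1 turned to 0.12, Pecam1 to 0.19 and Cdh5 to -0.083. Leaving out 1 sample took Erbb3 from -0.58 to 3.33, Foxd3 from -1.16 to 1.63, Pecam1 from -0.47 to 0.049 and Kdr from -0.36 to 0.023. Leaving out 1 sample also ended calls of Dusp15, Yy1, Myh3 and Des, as given above, and that of the Mbp transcript NM_001025294.1 for each RSC sample left out. Calls were gained by Lama2 and Itgb4 without RSC replicate 1, Sqle without RSC replicate 1 or 2, Erbb2 and Myrf without RSC replicate 3, Prph without RSC replicate 2, Isl1 without SCP replicate 2, Hey1 without SCP replicate 3 and the Gjb1 transcript NM_017251.2 without RSC replicate 2. With the highest transcript alone, Mbp stood at 6.99, Itga6 at 2.54, Sox2 at 2.22, Cadm1 at -2.20, Itgam at 3.42 and Dcn at 6.08, all still called, and Hba1 was at -2.96 with quantile normalization. The cause of these changes was not tested.

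With the replicate number as a block the 8 genes gave 6 calls and all tested genes 4275. The block took the calls of Dusp15, Sox10, Yy1 and Des (adjusted p from 0.030 to 0.049, limma) and gave calls to Fabp5, Erbb2 and Myrf (adjusted p from 0.013 to 0.023, limma). Samples of the same number shared little beyond it, since their deviations from the group means correlated at 0.04, -0.0049 and 0.03 across genes, which are not independent replicates.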
